A study of Mus musculus with 4 samples.

Results

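T-type calcium channels open at small depolarizations near the resting potential and close again quickly. Each channel is formed by 1 large pore-forming protein, encoded by Cacna1g (alpha1G), Cacna1h (alpha1H) or Cacna1i (alpha1I), and unlike the high-voltage-activated channels it needs no auxiliary subunit to reach the membrane. T-type current is known for low-threshold spikes and rebound bursts in thalamic and other neurons, and it is present in many immature neurons and muscle cells before high-voltage-activated current matures. The members are these 3 of 25239 gene IDs in the tables, taken by name and chosen from genes whose difference between the 2 genotypes, in the TPM of these same libraries, was already known, so that difference is given for them as a description without a test.

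The study sequenced poly(A) RNA of mouse retina dissected at E13.5, mid-gestation, and asked how the transcriptome differs when the LIM-homeodomain factor Isl1 is lost. There were 2 libraries of the genotype labelled control and 2 of the genotype labelled Isl1cKO, a conditional knockout. The Cre driver, the alleles of the controls, the strain and any pooling of embryos are not given in the sources used here. Nothing in the labels says that the libraries came from separate embryos, so the p-values below measure only the spread between these libraries. Between the controls that spread may be technical. The 2 libraries labelled Isl1cKO differed in Xist, which marks sex, so they did not hold the same RNA sample.

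The targeted gene was read first. Control replicates 1 and 2 held 242 and 201 TPM of Isl1, and Isl1cKO replicates 1 and 2 held 321 and 223 TPM. TPM is a share of all transcripts, scaled to transcript length and to the same total in every library. The difference was 0.28 on the log2(TPM + 1) scale (SE 0.29) and did not pass in limma, at an adjusted p-value of 0.683. The level of Isl1 therefore shows no loss. The tables hold no value per exon, so a deletion of part of the gene can be neither seen nor excluded. Every direction below rests on the labels, and Isl1cKO names a label rather than a measured loss. Pairs of values give replicates 1 and 2 of control first, then replicates 1 and 2 labelled Isl1cKO. Each library held between 12.6 and 14.3 gigabases of aligned sequence. The shallowest was Isl1cKO replicate 2, where Xist, the sex marker, stood at 0.501 TPM against 209 to 287 TPM in the other libraries. Sex read from Xist thus differed within the Isl1cKO group, and between Isl1cKO replicate 2 and both controls. The part of sex in the differences below was not tested. Rax, an eye field factor gene of retinal progenitors, had between 404.5 and 476.8 TPM in every library.

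Cacna1i, whose channel has the slowest kinetics of the family and is best known from the thalamic reticular nucleus, was low in control, with 2.15 TPM in replicate 1 and 2.34 TPM in replicate 2. Isl1cKO replicate 1 held 68.0 TPM and Isl1cKO replicate 2 held 61.5 TPM. Both libraries labelled Isl1cKO were far above both controls, and the groups did not overlap. The control mean of 2.25 ± 0.133 TPM (SD, n = 2) and the Isl1cKO mean of 64.7 ± 4.59 TPM (SD, n = 2) had a ratio of 28.8, and the lower Isl1cKO library was 26.25-fold above the higher control. On the log2(TPM + 1) scale the difference was 4.34 (SE 0.08), where the controls differed from each other by 0.08 and the libraries labelled Isl1cKO by 0.14. This was the largest positive difference among the 13984 genes tested. Of all gene IDs, 49.6% and 50.0% had a lower TPM than Cacna1i in the controls, against 88.0% and 86.9% under the knockout label.

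The value rested on ample sequence in every library. Mean coverage per base of Cacna1i was 11.3 and 11.6 in the controls and 363.0 and 304.6 in the libraries labelled Isl1cKO, so the control level was low but read many times over. Isl1cKO replicate 2, which stands apart in Xist and is the shallowest by a small margin, held a level of Cacna1i close to that of Isl1cKO replicate 1. Without that library the difference was 4.41, and over the 4 comparisons that each leave out 1 library it ranged from 4.27 to 4.41.

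The sequence before the start of Cacna1i is shown because it is the promoter of the member with the largest difference, from the RefSeq table of GRCm38.p6, at chr15:80286988-80287237 on the plus strand. Capitals mark the only match, on either strand, to the 4 motifs searched. These were TAAT, the core of many homeodomain sites, GGGCGG, the GC box, CANNTG, the E-box bound by basic helix-loop-helix factors, and TATAA, the TATA box, none of which contains another.
Cacna1i, 250 bases before the start: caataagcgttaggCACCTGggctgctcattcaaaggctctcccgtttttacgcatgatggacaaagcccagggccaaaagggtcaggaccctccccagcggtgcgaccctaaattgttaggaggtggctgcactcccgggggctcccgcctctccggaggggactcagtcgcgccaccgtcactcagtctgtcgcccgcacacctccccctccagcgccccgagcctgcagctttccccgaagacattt

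The window is 62.4% G and C and holds 16 CpG dinucleotides, against medians of 52.4% and 6 over 32851 promoter windows of the same length. It has 1 E-box, beginning 236 bases before the start, and E-boxes occur in 66.2% of those windows. TAAT occurs in 54.9% of windows, GGGCGG in 32.7% and TATAA in 22.8%, and none of these letters is in this one. A match or its lack describes the letters only.

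Cacna1h, a T-type gene of sensory neurons and many developing tissues, had 19.0 and 18.7 TPM in control, against 28.0 TPM in Isl1cKO replicate 1 and 22.0 TPM in Isl1cKO replicate 2. The means were 18.9 ± 0.220 and 25.0 ± 4.25 TPM (SD, n = 2 each), a ratio of 1.33 and a log2 difference of 0.38 (SE 0.17). The groups did not overlap, but the libraries labelled Isl1cKO differed from each other by 0.33, almost as much as the groups did, and the difference ranged from 0.21 to 0.55 when each library was left out in turn, lowest without Isl1cKO replicate 1. Cacna1g, the T-type gene of thalamic relay neurons and cardiac pacemaker cells, had 3.74 and 4.31 TPM in control, against 5.23 TPM in Isl1cKO replicate 1 and 4.82 TPM in Isl1cKO replicate 2. Its means were 4.02 ± 0.403 and 5.02 ± 0.291 TPM (SD, n = 2 each), a ratio of 1.25 and a log2 difference of 0.26 (SE 0.10), with 0.16 between the controls.

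All 3 members thus had both libraries labelled Isl1cKO above both controls. The same was true of 14.9% of tested genes, while 30.0% had both below, and nothing is read from the members' count because the contrast chose them. The sizes differed widely. The lower Isl1cKO library exceeded the higher control 1.16-fold for Cacna1h and 1.12-fold for Cacna1g, and in order of log2 difference from the highest down they ranked 342 and 693 of 13984.

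**Figure D1:**
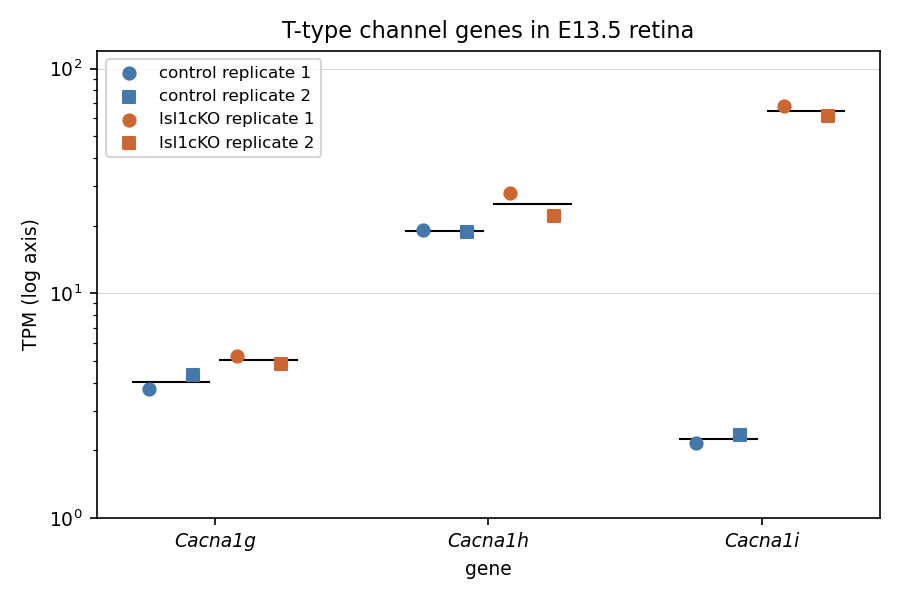
TPM (log axis) of Cacna1g, Cacna1h and Cacna1i in each library, with circles for replicate 1, squares for replicate 2 and short lines at group means. Cacna1i lies at 2.15 and 2.34 TPM in control and, under the Isl1cKO label, at 68.0 and 61.5 TPM, while the other members stay within a 1.33-fold ratio of means.

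The order of the members was not the same in the 2 groups. In both controls Cacna1h was highest, then Cacna1g, then Cacna1i, and no neighbours in that order overlapped. In both libraries labelled Isl1cKO the order was Cacna1i, Cacna1h, Cacna1g, again without overlap. Cacna1h carried 76.4% and 73.8% of the summed T-type TPM in the controls, but 27.7% and 24.9% in the libraries labelled Isl1cKO. Cacna1i carried 8.64% and 9.23% in the controls and 67.1% and 69.6% in the libraries labelled Isl1cKO. The 3 genes together held 25.1 ± 0.311 TPM in control against 94.8 ± 9.13 TPM under the knockout label (SD, n = 2 each), and most of that gap was Cacna1i itself.

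The genes lie on separate chromosomes, at the positions in the authors' tables, which lie within a few bases of those in GENCODE annotation of the same assembly, mm10. Cacna1i is on chromosome 15 from 80287238 to 80398292 on the plus strand, and its longest coding transcript in GENCODE has 37 exons and 9781 bases. Cacna1h is on chromosome 17 from 25374287 to 25433783 and Cacna1g on chromosome 11 from 94408391 to 94474198, both on the minus strand. Each stood on 1 row per library, so no rows were summed for them. No GENCODE gene overlaps Cacna1i or Cacna1g. Tpsg1, a mast cell tryptase gene on the opposite strand, overlaps the end of Cacna1h, and was listed at 0.0486 TPM or less in every library.

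The genes beside Cacna1i on chromosome 15 were examined for a difference spread over the region. The 5 tested genes on each side had log2 differences from -0.84 to 0.37, with a median of -0.09 against -0.05 over all tested genes. None passed an adjusted p-value of 0.05 in limma. At an unadjusted p-value under 0.05, 1 was higher and 1 lower, where 3.20% and 8.92% of all tested genes lay. The gene that ends nearest to it, Rps19bp1, 22.9 kb to the left, differed by -0.09 (SE 0.07), and Atf4, the transcription factor of the integrated stress response, 29.7 kb to the left, by -0.20 (SE 0.08). Mief1, a mitochondrial fission gene, and Tab1, which encodes a partner of the kinase TAK1, differed by -0.02 and -0.03, and Mgat3, a glycosyltransferase gene, by -0.20.

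On the right, the predicted gene Gm31369, 33.3 kb away on the opposite strand, had 1.65 and 1.17 TPM in control, against 2.08 and 2.14 TPM, at an adjusted limma p-value of 0.363. Fam83f, 273.6 kb away, was lower instead, with 4.66 and 4.62 TPM in control against 1.79 and 2.58 TPM, with an adjusted p-value of 0.157. Tnrc6b, of the microRNA silencing complex, differed by -0.15, Adsl, of purine synthesis, by 0.05 and Sgsm3 by -0.09. Enthd1 and Grap2, which lie between Gm31369 and Fam83f and did not pass the filter on low values, were at 0.230 TPM or less in every library. They are outside the rule for naming genes and were named after their values were seen. No measured gene within this stretch came near the size of the Cacna1i difference.

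**Figure D2:**
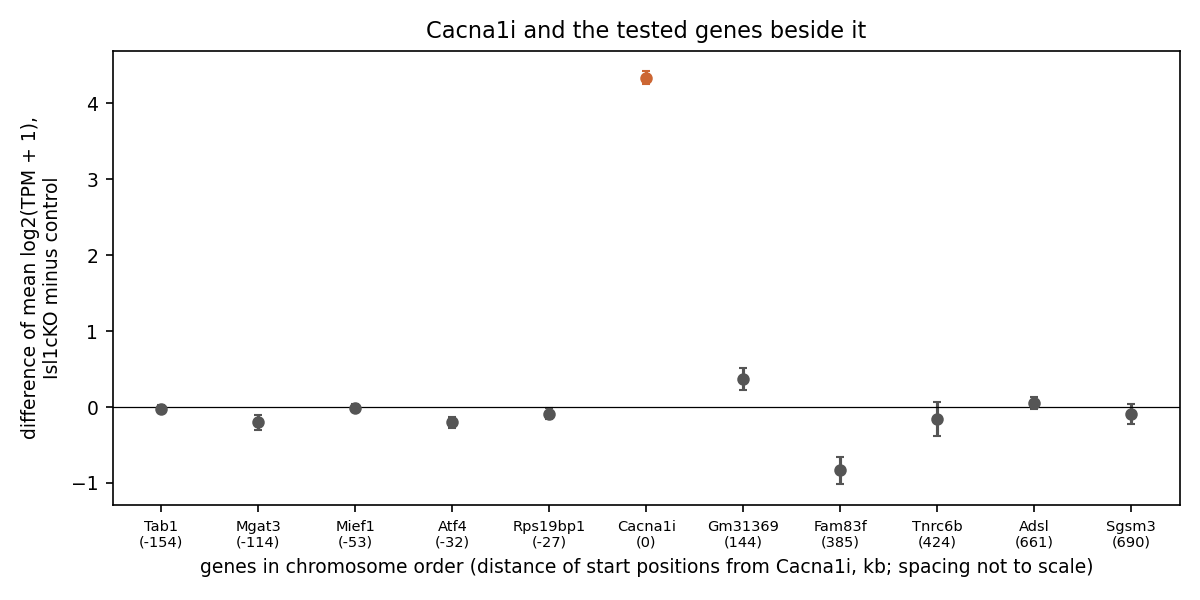
Difference of mean log2(TPM + 1), Isl1cKO minus control, for Cacna1i and the 5 tested genes on each side in chromosome order, with bars for the standard error (n = 2 per group). Cacna1i lies at 4.34 and its neighbours between -0.84 and 0.37.

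The neighbours of the other members were treated the same way, and over the 30 neighbours of all 3 the median difference was -0.02 with 0 past the threshold. An unadjusted p-value under 0.05 was met by 2 higher and 3 lower of these 30, beside the same shares of all genes. The lowest values were beside Cacna1h. Sox8, an HMG-box transcription factor gene, had 12.8 and 9.68 TPM in control, against 5.15 and 5.32 TPM, at an adjusted limma p-value of 0.129. The noncoding RNA Cerox1, next to it, stood at 7.44 and 7.69 against 3.91 and 3.14 TPM, with an adjusted p-value of 0.0842.

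The high-voltage-activated channels were then set beside the T-type genes, because their pore-forming subunits belong to the same superfamily. In limma, 0.493% of all tested genes passed an adjusted p-value of 0.05, 0.0286% higher and 0.465% lower under the knockout label. Of the 23 other channel subunits 18 were tested and 0 passed. An unadjusted p-value under 0.05 was met by 0 higher and 4 lower subunits, against 3.20% and 8.92% of all tested genes. Their median log2 difference was -0.27 against -0.05 over all tested genes, with 4 above 0 and 14 below. Of all tested genes, 36.2% lay above 0.

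Among pore-forming subunits, Cacna1b, the N-type channel of growing axons and nerve terminals, had 14.8 and 12.5 TPM in control, against 8.52 TPM in Isl1cKO replicate 1 and 5.07 TPM in Isl1cKO replicate 2. The log2 difference was -0.94 (SE 0.34), and the adjusted p-value of 0.285 in limma did not pass. Cacna1a, the P/Q-type channel, stood at 7.19 and 6.95 against 5.69 and 4.21 TPM, a difference of -0.45 with an adjusted p-value of 0.352. Both of these presynaptic channels were thus lower in each library labelled Isl1cKO than in each control, as were 30.0% of all tested genes.

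Cacna1d, an L-type gene, had 16.7 and 20.9 TPM in control, against 24.6 and 21.5 TPM. The difference was 0.29, with an adjusted limma p-value of 0.528. Each library labelled Isl1cKO was above each control, as in 14.9% of all tested genes. Cacna1c, the other main L-type gene of neurons, stood at 2.57 and 2.82 against 3.15 and 1.87 TPM, and Cacna1e, the R-type gene, at 1.80 and 1.66 against 2.68 and 1.19 TPM. The groups overlapped for both, with differences of -0.10 and 0.06 and adjusted p-values of 0.878 and 0.954 in limma. Cacna1f, the photoreceptor L-type gene, and Cacna1s, of skeletal muscle, were at 0.223 TPM or less everywhere and were not tested.

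In control the 10 pore-forming genes ran in the order Cacna1h, Cacna1d, Cacna1b, Cacna1a, Cacna1g, Cacna1c, Cacna1i, Cacna1e, Cacna1f and Cacna1s by mean TPM. Only the values of Cacna1h and Cacna1d overlapped. In the libraries labelled Isl1cKO Cacna1i was first of 10 in place of 7 (6 by coverage per base), followed by Cacna1h and Cacna1d, which overlapped, and by Cacna1b, Cacna1g and Cacna1a, which overlapped as well, as did Cacna1c and Cacna1e. The T-type genes made up 36.5% and 36.0% of the summed TPM of the 10 genes in the controls, but 69.3% and 72.3% in the libraries labelled Isl1cKO. The other 7 genes summed to 43.3 and 45.2 TPM in control, against 44.9 and 33.9 TPM.

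**Figure D3:**
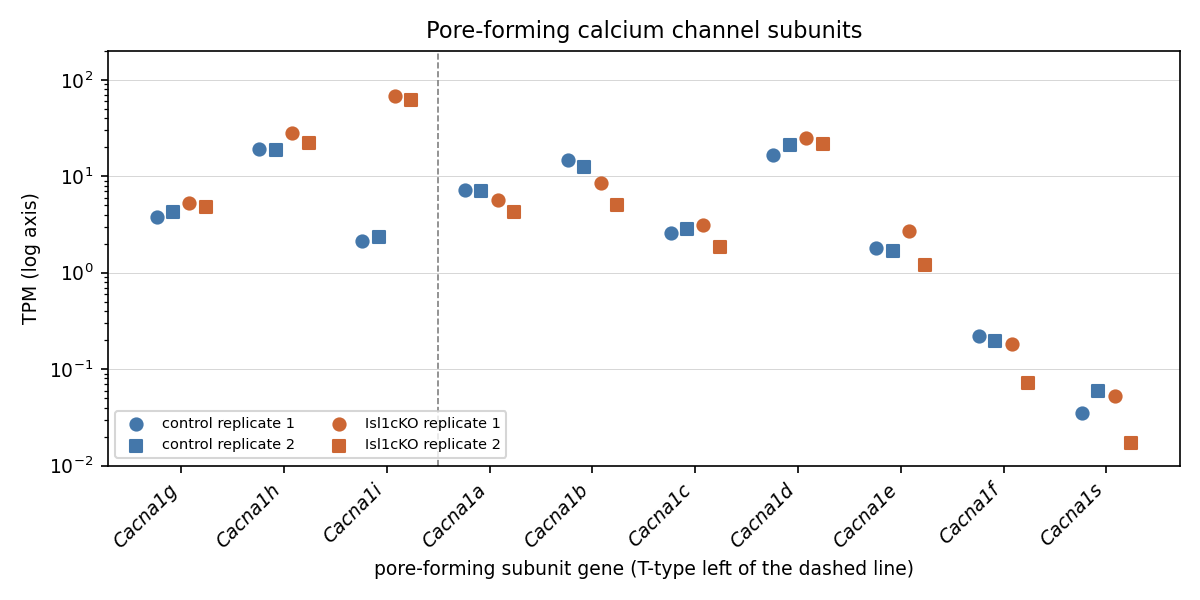
TPM (log axis) of the 10 pore-forming calcium channel subunits in each library, with T-type genes left of the dashed line, circles for replicate 1 and squares for replicate 2. Cacna1i is the seventh by TPM in control (rank 6 by coverage per base) and the first under the Isl1cKO label, and Cacna1a and Cacna1b are lower in both libraries labelled Isl1cKO.

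The auxiliary subunits, which T-type channels do not require, gave 0 calls in limma as well. Tested were 4 alpha2delta, 4 beta and 5 gamma genes. At an unadjusted p-value under 0.05, 2 were lower, both gamma genes, where 8.92% of all tested genes lay. All 4 alpha2delta genes and all 4 beta genes had differences below 0, where 36.2% of all tested genes lay above 0. Their medians were -0.35 and -0.24, though Cacna2d2, at -0.0017, lay above the median of all tested genes. Cacnb3, the most abundant beta gene, had 89.7 and 90.5 TPM in control, against 82.0 and 66.1 TPM. Cacna2d1, an alpha2delta gene, stood at 28.9 and 29.2 against 28.3 and 17.2 TPM. The gamma genes were listed by name, whether or not each protein acts on calcium channels. Of these, Cacng4 stood at 117 and 104 against 91.6 and 93.1 TPM and Cacng7 at 96.7 and 106 against 116 and 132 TPM, so these abundant genes differed in opposite directions. Cacng5 stood at 1.99 and 1.60 against 0.815 and 0.396 TPM, at an adjusted limma p-value of 0.203.

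Proteins described as binding or modifying T-type channels, and transcription factors described at their genes, made up a list of 20. Of these 18 were tested and 0 passed in limma, where 0.493% of all tested genes passed. At an unadjusted p-value under 0.05, 1 was higher and 4 lower, against 3.20% and 8.92% of all tested genes. The median difference was -0.16 against -0.05 over all tested genes. Klhl1, a Kelch-like protein reported to raise T-type current, had 9.77 and 7.30 TPM in control, against 2.96 and 1.66 TPM, a difference of -1.54 (SE 0.34) that did not pass (adjusted p-value 0.139, limma). It was the regulator furthest from 0 and lay on the opposite side from Cacna1i. Camk2a, a subunit of the calmodulin kinase that phosphorylates the channel, stood at 2.96 and 2.49 against 3.63 and 4.73 TPM, and Camk2b, another subunit, differed by -0.53. Gng2, a G-protein gamma subunit, stood at 113 and 87.4 against 75.6 and 65.7 TPM. The 3 tested transcription factors, the neuronal repressor Rest, Sp1 and Hif1a, had differences from -0.15 to -0.01, with Rest nearest to 0, and Egr1 did not pass the filter on low values.

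Channels that act together with T-type current in rebound firing were measured next. Of 18 genes 15 were tested and 0 passed in limma, where 0.493% of all tested genes passed. At an unadjusted p-value under 0.05, 0 were higher and 2 lower, against 3.20% and 8.92% of all tested genes. Their median was -0.25 against -0.05 over all tested genes. Hcn4, a pacemaker channel, had 15.5 and 12.8 TPM in control, against 12.2 and 9.92 TPM. Kcnip1 and Kcnip3, which bind the A-type potassium channel, stood at 1.74 and 2.03 against 0.988 and 1.40 TPM, and at 2.12 and 2.40 against 1.56 and 0.719 TPM. The smallest adjusted p-value of the list was 0.357, that of Kcnip1. Unc79, a partner of the leak channel Nalcn, stood at 5.47 and 3.97 against 3.55 and 1.57 TPM.

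Genes that buffer or move calcium inside the cell gave 0 calls in limma among 20 tested of 26, where 0.493% of all tested genes passed. At an unadjusted p-value under 0.05, 0 were higher and 2 lower, against 3.20% and 8.92% of all tested genes. Their median was -0.18 against -0.05 over all tested genes. Calb2, the buffer calretinin, which marks ganglion and amacrine cells, had 38.4 and 27.6 TPM in control, against 19.8 and 11.8 TPM, at an adjusted limma p-value of 0.306. The plasma membrane pump genes Atp2b1 and Atp2b2 stood at 70.0 and 64.1 against 59.0 and 46.7 TPM, and at 2.47 and 1.55 against 1.20 and 0.708 TPM. Atp2a2, the store pump, stood at 192 and 179 against 170 and 165 TPM. No list of channel partners or calcium genes had a median above 0, where only 36.2% of all tested genes lay above 0. The 3 members lay above 0 but were chosen with this contrast known, so they are not set against the lists.

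Levels of cell type markers were set beside the members, and in bulk tissue fewer cells of a type and less RNA per cell cannot be told apart. The 11 ganglion cell markers had a median difference of -1.27 against -0.05 over all tested genes, with 10 below 0. In limma 0 passed, where 0.493% of all tested genes did. At an unadjusted p-value under 0.05, 10 were lower, against 8.92% of all tested genes. Without Isl1cKO replicate 1, 1 passed. Their summed level was 3022 and 2550 TPM in control, against 1451 and 997 TPM under the knockout label. The ganglion cell marker above 0 was Pou4f2, with 126 and 124 TPM in control, against 135 and 120 TPM, a difference of 0.02. The 8 amacrine markers summed to 98.7 and 71.3 against 75.7 and 53.6 TPM. The 7 photoreceptor precursor markers summed to 418 and 377 against 379 and 298 TPM, and the 4 horizontal cell markers to 89.3 and 83.5 against 115 and 78.9 TPM. The groups overlapped in these 3 sums. In the same order, 6, 7 and 3 genes of these lists were tested, and 0 passed in limma. At an unadjusted p-value under 0.05, 3 were lower, against 8.92% of all tested genes. Rax, of retinal progenitors, had 404.5 and 412.4 TPM in control, against 425.7 and 476.8 TPM, so it was higher in both libraries labelled Isl1cKO. The markers of its list did not all share this direction, so Rax is not read as the level of progenitors. No neuronal marker sum was higher in both libraries labelled Isl1cKO than in both controls, and the part of any of these cells in the Cacna1i difference was not tested.

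Markers of tissue outside the neural retina were summed in the same way. The 8 lens markers summed to 158 and 193 TPM in control and to 10.0 and 7.34 TPM in Isl1cKO. All 8 were tested and 4 passed in limma, all lower, where 0.465% of all tested genes passed as lower. The 7 red blood cell markers summed to 2775 and 3995 against 1328 and 180.2 TPM. In limma 6 of them were tested and 0 passed. At an unadjusted p-value under 0.05, 3 were lower, against 8.92% of all tested genes. The 6 pigment epithelium markers summed to 40.6 and 34.7 against 34.2 and 25.1 TPM, with Rpe65 at 0 everywhere, the 6 smooth muscle and pericyte markers to 8.91 TPM or less and the 5 cranial mesenchyme markers to 6.33 TPM or less in every library. Of the 6 diencephalon markers, a neighbouring brain region where T-type genes are strongly expressed in neurons, Nkx2-1 and Nkx2-2 were at 0 in every library, Gbx2 at 0.0855 TPM or less, and the sum, mostly Tcf7l2 and Foxd1, the latter a gene of temporal retina too, was 46.6 and 40.5 against 36.8 and 46.4 TPM, so the groups overlapped. The part of these tissues in the Cacna1i difference was not tested.

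The genes whose profile over the 4 libraries lay nearest to that of Cacna1i were found by Euclidean distance between log2(TPM + 1) values, each gene centred on its mean. A gene with no variation would lie at 4.34, and 4953 of the 13983 other tested genes lay nearer than that. Values were not scaled to each gene's spread, so the distance depends on the size of a gene's own difference. The nearest 5 were Barhl1 at 2.34, Gm2260 at 2.65, Afp at 2.70, Robo3 at 2.74 and Asic4 at 2.79. These genes were picked by their values in the same contrast, so they are described without a test.

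Barhl1, a homeobox factor gene, had 0.557 and 0.620 TPM in control, against 6.01 and 4.74 TPM. Robo3, an axon guidance receptor gene of commissural neurons, stood at 2.14 and 1.42 against 8.97 and 6.22 TPM. Asic4, of the acid-sensing ion channel family, stood at 2.35 and 2.00 against 9.25 and 7.45 TPM. In these 3 genes, as in Cacna1i, Isl1cKO replicate 1 held the higher of the 2 values. Afp, the fetal serum protein alpha-fetoprotein, stood at 0.315 and 0.783 against 2.81 and 5.88 TPM, and the predicted gene Gm2260 at 0.568 and 0.00679 against 2.26 and 5.45 TPM. In both of these the higher value was in Isl1cKO replicate 2. On the log2(TPM + 1) scale all 5 genes had a larger SE than Cacna1i, from 0.15 for Barhl1 to 0.59 for Gm2260 against 0.08.

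**Figure D4:**
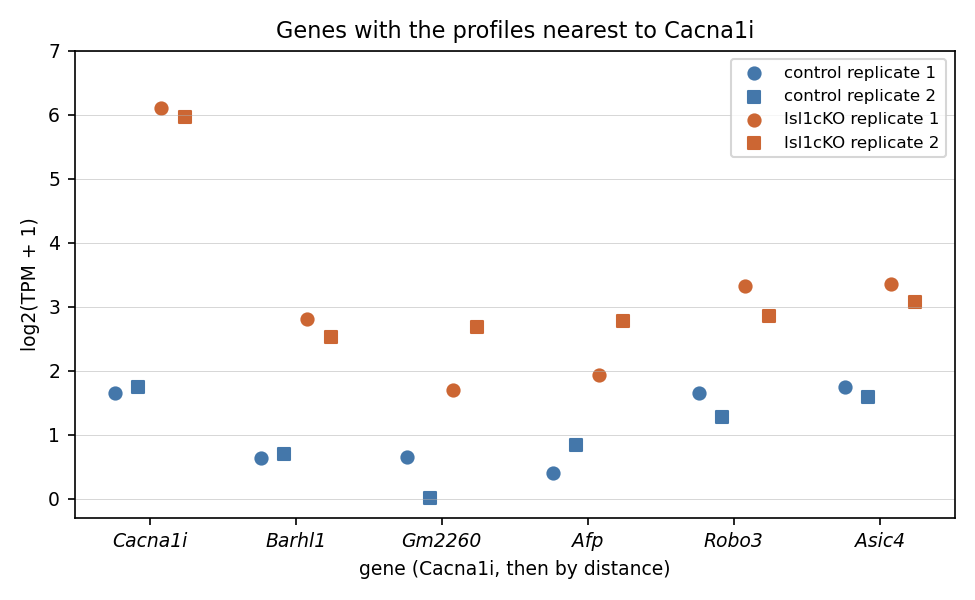
Values of log2(TPM + 1) in each library for Cacna1i and the 5 tested genes nearest to it by centred profile, with circles for replicate 1 and squares for replicate 2. All 5 are higher in both libraries labelled Isl1cKO than in both controls, and Cacna1i has the widest gap.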

How the data were processed

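Strand-specific poly(A) libraries were made from frozen retina, per the labels' protocols. The submitters' processing notes name Trimmomatic, FastQC, HISAT2, SAMtools, StringTie, DESeq2 and mm10, with no role or version. Per the file headers, the authors deposited for each library and gene the mean coverage, a signal not scaled to depth, the FPKM and the TPM. The deposited TPM sum to 1000000 per library. The tables hold no counts, so no count model or counting interval was computed, and gigabases come from the ratio of coverage to FPKM. Whether reads were assigned by strand is not given in the sources used here.

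TPM were summed over repeated rows. Low genes were dropped, keeping 13984 that reached 1 TPM in 2 or more libraries. Their log2(TPM + 1) values were fitted on genotype alone (R 4.3.3, limma 3.58.1, two-sided), and Benjamini-Hochberg adjustment ran over all of them with a threshold of 0.05. This scale understates differences of low genes. The SE printed is that of the difference of means without moderation. The fit was tested on simulated data.

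Members and lists were chosen with earlier results of these data known. Genes named are the members, Isl1, all pore-forming subunits, all neighbours of Cacna1i, the 5 genes most like it, and list genes past the threshold or, up to 5 a list, highest in level or difference. Xist, Tpsg1, Rest, Sp1, Egr1, Cacna2d2, Enthd1, Grap2 and the markers are outside this rule. The retinal progenitor list as a whole is not reported here.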

Additional observations from a re-analysis of the deposited data

How the results depend on the processing

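The log2 difference of Cacna1i, 4.34, became 4.79 when the constant added was 0.1 and 3.82 when FPKM replaced TPM, since the constant weighs most on low control values, and stayed at 4.27 to 4.41 when each library was left out in turn. Cacna1h and Cacna1g kept their sign under each of 9 alternatives, from 0.21 to 0.55 and from 0.18 to 0.35, and the shares of the members moved by less than their SD with coverage or the highest row in place of summed TPM, though by coverage Cacna1i ranked 6 rather than 7 of 10 in control. The count of 69 genes past the threshold became 44 with 0.1 added in place of 1, 15 with no filter, where 19784 genes were tested, 109 with FPKM, 81 under median-ratio scaling, and 110 with a mean-variance trend, which was chosen after seeing the data. It was 10 without control replicate 1, 14 without control replicate 2, 18 without Isl1cKO replicate 2 and 37 without its replicate 1, where the lone library is assumed to vary like the other group. The cause of these shifts was not tested. Of the 5 gene lists, only the neighbours gained a call outside the replicate block, where 1 gene, Cerox1, passed with FPKM. Of the ganglion cell markers 2 passed with FPKM, 5 with the mean-variance trend and 1 without Isl1cKO replicate 1, where 3 red blood cell markers passed, and lens calls ranged from 2 with no filter to 6 under the replicate block. With each library left out in turn, Cacna1c ranged from -0.37 to 0.17, above 0 only without Isl1cKO replicate 2, and Cacna1e from -0.32 to 0.43, below 0 only without Isl1cKO replicate 1.

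The replicate numbers are shared between the groups, and the deviations of the replicates numbered 1 correlated at 0.126 across genes. There are 2 pairs, and nothing in the labels ties a number to a litter or a day, so only the number is shared. Under the replicate block the calls came to 265, with 1 in each of 4 gene lists, Cacng5, Klhl1, Calb2 and Cerox1, and with 7 ganglion cell markers and 1 photoreceptor precursor marker, all lower.

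Depth in reads is unknown, so no detection limit is given for genes at 0.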
